A study of Mus musculus with 12 samples.

Results

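The genes described here make the machinery that lengthens and reads the poly(A) tail of oocyte mRNAs. *Pabpc1* and *Pabpc1l* encode cytoplasmic poly(A)-binding proteins, *Paip1*, *Paip2* and *Paip2b* encode proteins that bind them and raise or lower their activity, *Papola* and *Papd4* encode poly(A) polymerases, and *Cpeb2*, *Cpeb3* and *Cpeb4* encode relatives of the cytoplasmic polyadenylation element-binding protein CPEB1. They were chosen by name, for these roles, with earlier results of these data known, and are 10 of the 24259 gene symbols measured.

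As background, a full-grown oocyte no longer transcribes and depends on mRNAs stored with short tails. When meiosis resumes, CPEB proteins bound to the 3′UTR recruit a cytoplasmic poly(A) polymerase, the tail grows, and poly(A)-binding protein on the longer tail contacts the initiation factors at the cap and promotes translation. In oocytes and early embryos this protein is mainly the embryonic form PABPC1L (ePAB), whereas PABPC1 is the form of most somatic cells.

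Germinal vesicle (GV)-stage oocytes, those still arrested in the first meiotic prophase, came from WT mice and from mice homozygous for *Lsm14b* tm1a(KOMP)Mbp (*Lsm14b*-KO, hereafter KO), a knockout made by a reporter-tagged insertion carried by every cell of the mouse, which disrupts the gene of an RNA-binding protein, on a C57BL/6J background. Donors of both genotypes were 3 weeks old and had received 5 IU of PMSG, a gonadotropin that stimulates follicle growth, 46 h before collection. About 1500 oocytes were lysed and run on a sucrose gradient, of which fractions 1 to 10 made the RNP pool, with mRNA not on polysomes, and fractions 11 to 28 made the polysome pool, with mRNA carrying several ribosomes. Each pool was sequenced in 3 WT and 3 KO libraries, 12 in all, after Smart-seq2 amplification. The labels do not say whether the replicates of a group came from separate animals or gradients, so the p-values measure the spread between these libraries, which may be technical.

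Levels are in FPKM, a fragment density that corrects for transcript length and library depth, so listed levels of different genes can be set side by side. Some listed levels may not be the true ones, as described below for genes with copies, and overlapping genes may share reads. Because the scale is relative within each library, fewer cells of a type and less RNA per cell cannot be told apart, and neither can a change in the total RNA of a pool. Whether amplification depended on the length of the poly(A) tail was not tested, so a change in FPKM may not be one of mRNA amount. Depth was read from how the smallest FPKM values step up by whole fragments, and was 4.69 to 7.86 M fragments (M, mega) per library. *Lsm14b* had 11.3 to 15.3 FPKM in WT polysomes and 27.4 to 34.6 FPKM in the WT RNP pool, against at most 0.893 FPKM in any KO library, as its labels require. All 12 oocyte markers were present in every group, with a summed level from 8603 FPKM in the RNP pool to 29330 FPKM in polysomes. Of them, 4 rose and none fell in KO polysomes (median change 0.50, against 0.10 over all genes), and 7 rose and 1 fell in the KO RNP pool (0.46, against 0.05). Over all genes tested, 5.64% rose and 4.73% fell in polysomes, and 10.5% rose and 10.2% fell in the RNP pool. These calls are from the limma test described below, at an adjusted p under 0.05. Without KO polysome library 2, 1 rose in polysomes. Their part in the changes of the 10 genes was not tested. Of 19 markers of granulosa and other somatic cells, 5 were listed at 0 in all libraries, and the summed level was 41.9 to 91.2 FPKM in WT polysomes, 101 to 122 FPKM in KO polysomes, 52.5 to 67.9 FPKM in the WT RNP pool and 64.9 to 85.6 FPKM in the KO RNP pool. KO polysome library 2 stood apart from the others. Its 10 highest genes held 34.7% of summed FPKM, against 11.6% to 14.7% elsewhere, with *Mir300* alone at 170809 FPKM, and calls between genotypes or pools that were lost without it are named beside them.

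The 3′ end is where the encoded proteins act on their target mRNAs, and where their own mRNAs are processed, so the annotated 3′ ends of the 10 genes were read from GENCODE M21 on GRCm38. Sequences of a selection of the 10 genes are shown. The selection leaves out *Paip2*, *Paip2b* and *Papd4*, which were called in tests below, and holds *Cpeb3*, which was called in none of the main fits. Each sequence below has 30 bases, 5′ to 3′ on the transcript strand, with the polyadenylation signal in capitals.
Pabpc1, chr15:36595664-36595693, minus strand: aattcttgctttAATAAAaattccttaaac
Pabpc1l, chr2:164050505-164050534, plus strand: tttgctttatatATTAAAaaatgctgcaaa
Paip1, chr13:119458171-119458200, plus strand: ttagaatttgaaAATAAAacttagtttgtt
Cpeb3, chr19:37021301-37021330, minus strand: ggacaattggatAATAAAacgacagaatga
Cpeb4, chr11:31935604-31935633, plus strand: agatgttgaatgAATAAAacttttaactca

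A signal, searched as AATAAA or ATTAAA on the transcript strand, lay in the last 100 bases of 9 of the 10 genes, all but *Papola*, where 81.6% of the genes measured at 1 FPKM or more in at least 3 libraries have one. Of the 9, 8 had AATAAA, and *Pabpc1l* had the variant ATTAAA, which starts 22 bases before its annotated end. The cytoplasmic polyadenylation element (CPE), the site that CPEB1 recognizes, was searched as TTTTAT or TTTTAAT. None of the 10 genes held it in the last 100 bases, where 20.0% of the measured genes did. Over the whole 3′UTR the letters occurred 24 times in the 3778 bases of *Cpeb2*, 17 times in the 4102 bases of *Cpeb4* and 6 times in the 3569 bases of *Cpeb3*, against 1.36 per kb over the measured genes. They occurred 4 times in the 1137 bases of *Paip1*, and not at all in the 499 bases of *Pabpc1l*. These counts describe letters in the annotated ends, and the ends used in these oocytes were not measured.

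The 10 genes differed widely in level. *Paip2*, a translational inhibitor that strips poly(A)-binding protein from the tail, was the most abundant in the polysomes of both genotypes and in the KO RNP pool, with 728 ± 85.9 FPKM in WT polysomes (SD, n = 3 here and for every group). Its counterpart *Paip1*, which promotes translation by joining poly(A)-binding protein to the initiation machinery, was the most abundant in the WT RNP pool, with 385 ± 32.4 FPKM. There *Paip1* and *Paip2* (313 ± 3.6 FPKM) did not overlap, and in the KO RNP pool the order was turned, with 223 ± 15.8 FPKM for *Paip1* and 487 ± 21.5 FPKM for *Paip2*. *Paip2b* (28.9 to 282 FPKM) and *Pabpc1l* (40.5 to 162 FPKM) overlapped each other in the WT RNP pool only, and *Paip1* and *Pabpc1l* overlapped in KO polysomes. *Papola*, *Cpeb3* and *Cpeb4* lay between 1.10 and 33.9 FPKM in all libraries. *Papola* and *Cpeb3* overlapped in KO polysomes and in the WT RNP pool, and *Cpeb4* overlapped with both in WT polysomes. *Papd4* did not exceed 13 FPKM, *Pabpc1* 4.84 FPKM and *Cpeb2* 1.47 FPKM.

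**Figure D1:**
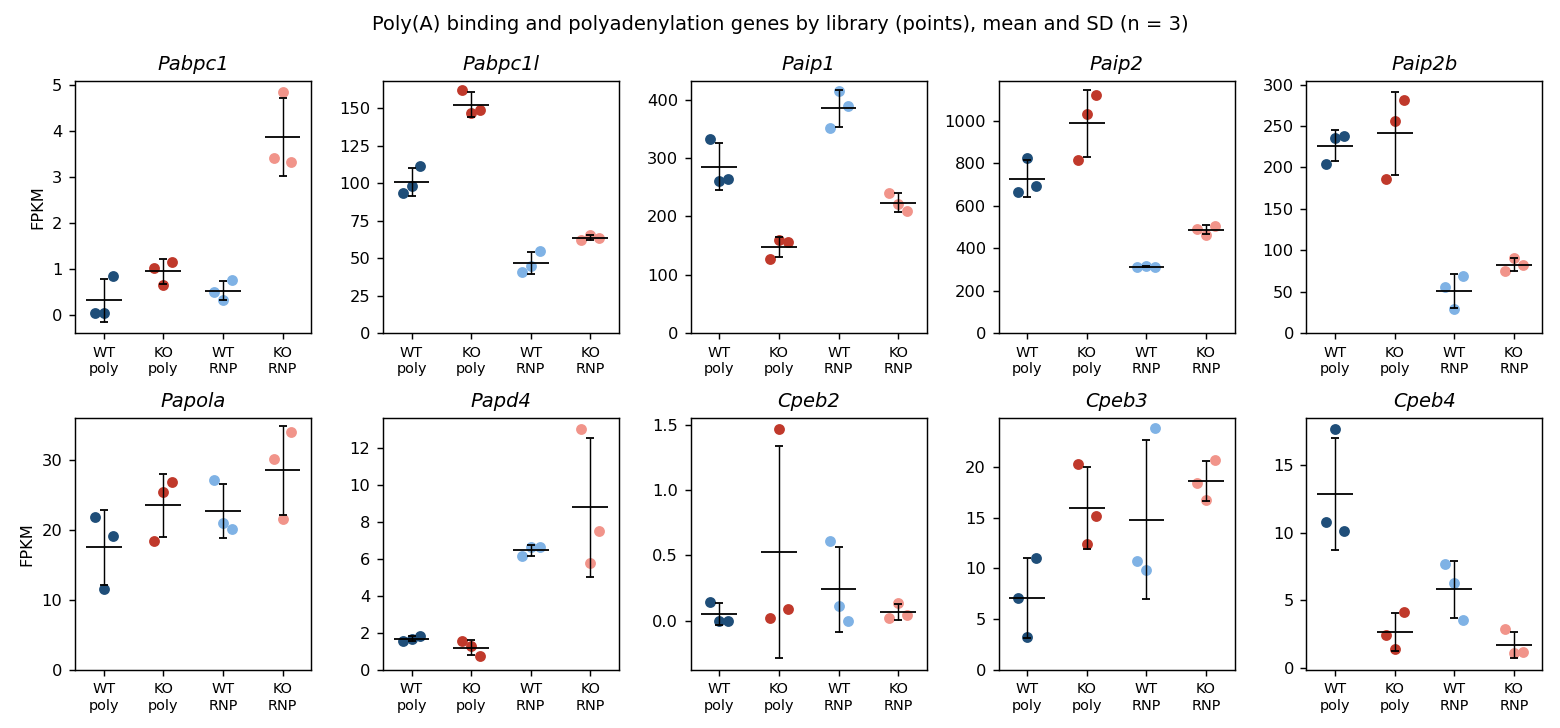
FPKM (linear axes) of each of the 10 genes in the WT and KO polysome (poly) and RNP libraries. Points are libraries, lines are group means and bars are SD (n = 3); *Paip1* was lower in every KO library than in every WT library of the same pool, and *Pabpc1* stood above 3 FPKM only in the KO RNP pool.

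The first question was how the genes differ between KO and WT oocytes in the polysome pool, which bears on the mRNA engaged in translation. *Pabpc1l* was higher and *Paip1* and *Cpeb4* were lower in KO polysomes, so 1 of the 8 genes tested rose and 2 fell (limma on log2(FPKM + 1), Benjamini-Hochberg adjusted p under 0.05). Among all genes tested, 10.4% passed, 5.64% higher and 4.73% lower. In 5 of the 8 genes tested the KO and WT libraries did not overlap, against 31.7% of all genes tested. The median change of the 8 genes was 0.25 on the log2 scale, against 0.10 over all genes. In the RNP pool 4 of the 9 genes tested passed, of which *Pabpc1* entered the test only through its KO libraries, where 20.7% of all genes did, 10.5% higher and 10.2% lower. *Pabpc1* and *Paip2* were higher and *Paip1* and *Cpeb4* lower in KO. There 6 of the 9 genes tested did not overlap between genotypes, against 39.2% of all genes tested, and the median change was 0.41, against 0.05 over all genes. *Pabpc1* is among these 6 and enters the median. Its lack of overlap is favoured by the filter, which it passed only through KO libraries. Changes are on the log2(FPKM + 1) scale, which understates those of low genes, and genes needed 1 FPKM in at least 3 libraries of a comparison to be tested.

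**Figure D2:**
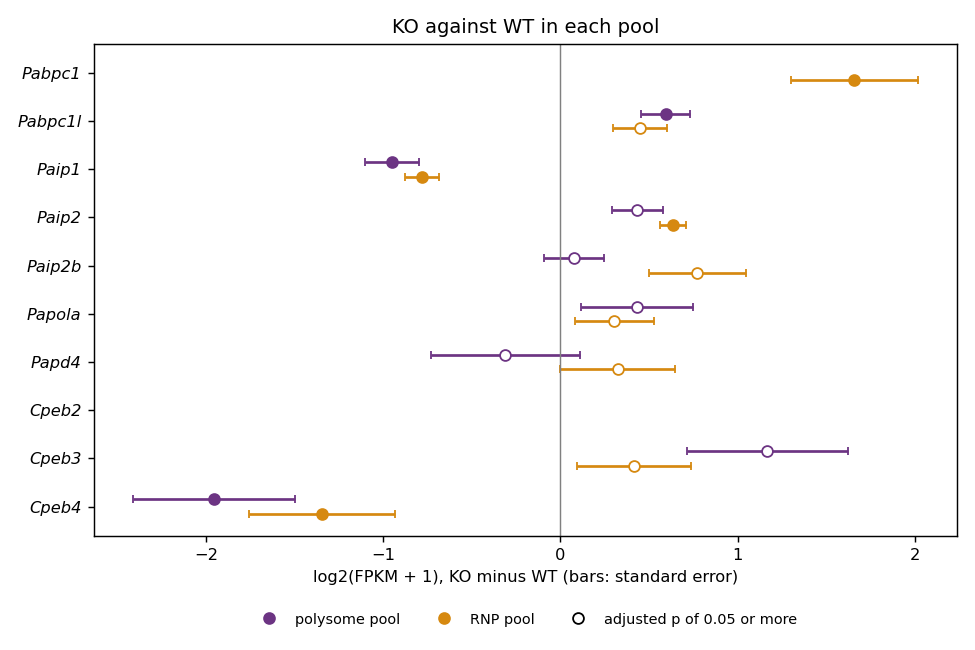
Change between KO and WT in the polysome and RNP pools, as log2(FPKM + 1) KO minus WT with the standard error of the limma fit. Filled points have an adjusted p under 0.05, and genes below the filter have no point; *Paip1* and *Cpeb4* lie left of 0 in both pools, and *Pabpc1l* and *Paip2* lie right of it.

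*Pabpc1l* (chromosome 2, 164025450 to 164050538), the oocyte's own poly(A)-binding protein, had 93.4, 97.9 and 111 FPKM in WT polysomes and 162, 147 and 149 FPKM in KO polysomes. Every KO library was above every WT library, and the KO mean was 1.51 times the WT mean. The change was 0.59 (standard error 0.14, adjusted p = 0.0318). It was between 0.54 and 0.67 with any of the 6 libraries left out, but was past the threshold only without WT polysome library 3 (adjusted p = 0.0356). Without any other library, KO polysome library 2 included (0.62, adjusted p = 0.102), the adjusted p was 0.0658 to 0.104. RNP levels of *Pabpc1l* were 40.5, 44.6 and 54.8 FPKM in WT and 62.0, 65.2 and 63.3 FPKM in KO. These groups did not overlap either, with a change of 0.45 (standard error 0.15) that missed the threshold (adjusted p = 0.0662) and passed it without WT RNP library 3, the highest of the WT libraries (0.57, adjusted p = 0.0254).

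*Pabpc1* (chromosome 15, 36595661 to 36609668), the somatic form, had 0.513, 0.337 and 0.757 FPKM in the WT RNP pool and 3.42, 4.84 and 3.33 FPKM in the KO RNP pool. All 3 KO libraries were thus several times above all WT libraries. With an estimated 56.7 to 85.2 fragments in the KO and 5.90 to 12.7 in the WT libraries, the change was 1.66 (standard error 0.36, adjusted p = 0.0116). *Pabpc1* reached 1 FPKM in KO but in no WT library of this pool, so it passed the filter through the group where it was high, and with any KO RNP library left out it was not tested. In polysomes it had 0.0614, 0.0590 and 0.861 FPKM in WT and 1.04, 0.660 and 1.16 FPKM in KO. These groups overlapped, and the gene was below the filter.

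The low level of *Pabpc1* has a limit in the deposited values. *Gapdh*, *Ppia* and *Rpl3*, which every cell uses, were listed at no more than 0.883, 0.993 and 0.742 FPKM in all 12 libraries, and have 78, 21 and 7 other annotated genes with a stretch of at least 200 bases at 95% identity or more. *Pabpc1* has 1 such copy, a pseudogene, as does *Papd4*, and the other 8 have none. *Eef1a1*, with 9 copies, had 123 to 265 FPKM, and *Vim* and *Krt18*, without copies, were listed at 0 throughout. The part of copies in the values of *Pabpc1* was not tested, so its level is given only as listed. Some somatic-cell markers were also higher in KO, and others were not. *Inha*, a granulosa-cell hormone subunit, had 0.0799 ± 0.138 FPKM in the WT and 6.96 ± 3.71 FPKM in the KO RNP pool, and 5.90 ± 5.16 FPKM in WT and 43.4 ± 6.92 FPKM in KO polysomes. *Cyp19a1* overlapped between genotypes in both pools, with 19.0 to 62.0 FPKM in WT and 14.6 to 34.5 FPKM in KO polysomes. *Cyp11a1* was at most 0.838 FPKM and was lower in KO than in WT polysomes. Of the 19 somatic markers 1 of the 4 tested rose in the RNP pool and 3 of the 7 tested rose in polysomes (*Inha*, *Inhba* and *Fshr*), and none fell in either, where 10.5% and 5.64% of all genes rose. *Inha* in the RNP pool, and *Inhba* and *Fshr* in polysomes, reached the filter only through KO libraries, and without KO polysome library 2 none of the 3 polysome calls was made. Their part in the change of *Pabpc1* was not tested.

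*Paip1* (chromosome 13, 119428601 to 119458218) had 332, 260 and 265 FPKM in WT polysomes and 127, 159 and 155 FPKM in KO polysomes. It had 351, 415 and 390 FPKM in the WT RNP pool and 240.2, 221 and 209 FPKM in the KO RNP pool. In both pools every KO library was below every WT library, with a KO mean of 0.515 times the WT mean in polysomes and 0.580 times in the RNP pool. *Paip1* fell by 0.95 on the log2 scale in polysomes (standard error 0.15, adjusted p = 0.00822). The RNP libraries gave a change of -0.78 (standard error 0.097, adjusted p = 0.000824). Both calls held with each library left out, and without KO polysome library 2 the polysome change was -1.01 (adjusted p = 0.0253).

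*Paip2* moved the other way in the RNP pool. It had 311, 317 and 311 FPKM in WT and 491, 464 and 506 FPKM in KO. The WT libraries lay within a few FPKM of each other and all KO libraries were above them, with a change of 0.63 (standard error 0.075, adjusted p = 0.000634) that held with each library left out. In polysomes *Paip2* had 666, 826 and 691 FPKM in WT and 813, 1030.3 and 1119.5 FPKM in KO. KO library 1 lay within the WT range, and the change of 0.43 (standard error 0.14) did not pass (adjusted p = 0.0875). It passed without KO polysome library 1 (0.57, adjusted p = 0.0389). *Paip2* overlaps *Slc23a1* on the opposite strand, so the reads of the shared stretch cannot be told apart.

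*Paip2b* (chromosome 6, 83805401 to 83831741), a second inhibitor of the same kind, had 205, 235 and 238 FPKM in WT and 186, 256 and 282 FPKM in KO polysomes. The KO libraries spanned the WT ones, with a difference of 0.08 and a 95% interval from -0.31 to 0.46. Its RNP libraries had 55.2, 28.9 and 68.4 FPKM in WT and 74.7, 90.7 and 82.7 FPKM in KO. These groups did not overlap, but the difference of 0.77 (standard error 0.27) did not pass (adjusted p = 0.0774), except without WT RNP library 3 (1.02, adjusted p = 0.0241). Without WT RNP library 2, the lowest, it was 0.42 (adjusted p = 0.0972). *Paip1* was lower in KO in both pools, while *Paip2* was higher in the KO RNP pool and overlapped between genotypes in polysomes. The ratio of *Paip2* to *Paip1* was 2.60 ± 0.586 in WT and 6.70 ± 0.444 in KO polysomes. It was 0.817 ± 0.0631 in the WT and 2.19 ± 0.204 in the KO RNP pool. This ratio was chosen after its values were seen and is given as a description.

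Neither poly(A) polymerase passed the test between genotypes. *Papola* (chromosome 12, 105784694 to 105838944), the canonical nuclear enzyme, had 17.5 ± 5.33 FPKM in WT and 23.5 ± 4.53 FPKM in KO polysomes, with overlapping libraries and a difference of 0.43 (95% interval -0.29 to 1.15). The RNP libraries had 22.7 ± 3.84 FPKM in WT and 28.5 ± 6.35 FPKM in KO, a difference of 0.30 (95% interval -0.20 to 0.81). *Papd4* (named *Tent2* in GENCODE M21, chromosome 13, 93146282 to 93192385), the cytoplasmic enzyme GLD2, had 1.57, 1.69 and 1.81 FPKM in WT and 1.55, 1.28 and 0.745 FPKM in KO polysomes. The KO libraries were lower, though KO library 1 was close to WT library 1, and the difference was -0.31 (95% interval -1.26 to 0.64). In the RNP pool *Papd4* had 6.14, 6.66 and 6.63 FPKM in WT and 13, 5.79 and 7.54 FPKM in KO, where the high KO library 1 gave most of the spread, with a difference of 0.32 (95% interval -0.41 to 1.06) that was 0.03 without that library and 0.55 without KO RNP library 2.

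*Cpeb4* (chromosome 11, 31872211 to 31935634), which in other vertebrate oocytes acts later in meiosis than CPEB1, had 10.8, 17.7 and 10.2 FPKM in WT and 2.45, 1.38 and 4.13 FPKM in KO polysomes. All KO libraries were below the WT ones, and the KO mean was 0.206 times the WT mean. *Cpeb4* fell by 1.95 (standard error 0.45, adjusted p = 0.0302). The call was lost without WT polysome library 1 (-2.05, adjusted p = 0.0518), without WT polysome library 2 (-1.72, adjusted p = 0.0740), without KO polysome library 2 (-1.68, adjusted p = 0.104) and without KO polysome library 1 (-1.95, adjusted p = 0.0838).

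The RNP libraries of *Cpeb4* had 7.65, 6.24 and 3.51 FPKM in WT and 2.83, 1.10 and 1.13 FPKM in KO. The groups again did not overlap, and the gene fell by 1.35 (standard error 0.41, adjusted p = 0.0460). The call held only without WT RNP library 3 (-1.62, adjusted p = 0.0274) or KO RNP library 1 (-1.63, adjusted p = 0.0488), and with any other library left out the adjusted p was 0.0922 to 0.145. Of all 13 alternatives run for it, 5 kept the call. The direction was the same in all these fits.

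*Cpeb3* (chromosome 19, 37021291 to 37208601), which is best known from neurons, had 7.05, 3.19 and 11.0 FPKM in WT and 20.3, 12.4 and 15.2 FPKM in KO polysomes. Every KO library was above every WT library, opposite to *Cpeb4*, but the WT libraries were widely spread and the difference of 1.17 (standard error 0.45) did not pass (adjusted p = 0.141). RNP libraries of *Cpeb3* had 10.8, 9.86 and 23.8 FPKM in WT and 18.4, 16.7 and 20.7 FPKM in KO, overlapping because of WT library 3. The difference was 0.41 (adjusted p = 0.410), 0.79 without that library (adjusted p = 0.0421), 0.19 without WT RNP library 2 and 0.25 without WT RNP library 1. *Cpeb3* overlaps 4 other annotated genes, *March5* on the opposite strand among them, and without a statement that strand was used in counting, reads of the overlapping parts cannot be told apart. *Cpeb2*, the remaining relative, had at most 1.47 FPKM, reached in KO polysome library 2, was listed at 0 in 3 of the 12 libraries and was not tested.

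The second question was how the FPKM of each gene compares between polysomes and the RNP pool. Such a comparison is relative to the other mRNAs of each pool, and does not give the part of an mRNA found in either. In WT, *Pabpc1l*, *Paip2* and *Paip2b* were higher in polysomes and *Papd4* was higher in the RNP pool, 4 of the 8 genes tested, where 14.7% of all genes passed, 7.97% higher and 6.72% lower in polysomes. In KO, 6 of the 9 genes tested passed, where 29.2% of all genes did, 15.5% higher and 13.8% lower. *Pabpc1l*, *Paip2* and *Paip2b* were again higher in polysomes, and *Papd4*, *Paip1* and *Pabpc1* were higher in the RNP pool. Between pools 6 of the 8 genes tested in WT did not overlap, against 34.6% of all genes tested, and 6 of the 9 tested in KO, against 44.2%. The median change from the RNP pool to polysomes was 0.32 in WT, against -0.09 over all genes, and -0.23 in KO, against -0.04 over all genes. These comparisons use the same libraries as those between genotypes, so their values are set side by side and not counted as further evidence.

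**Figure D3:**
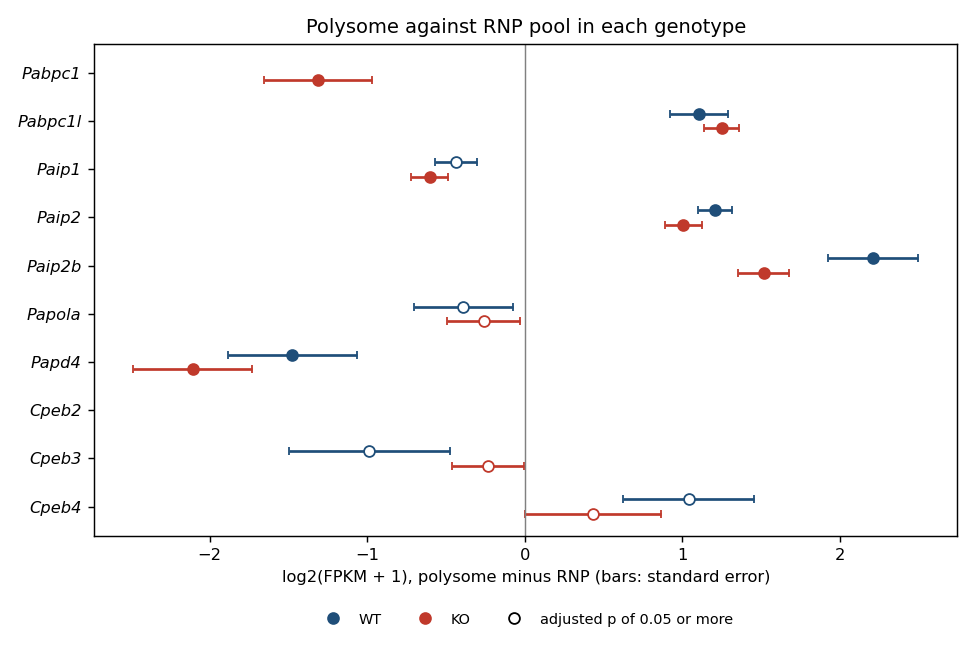
Difference between the pools in WT and in KO, as log2(FPKM + 1) polysome minus RNP with the standard error of the limma fit. Filled points have an adjusted p under 0.05, and genes below the filter have no point; *Pabpc1l*, *Paip2* and *Paip2b* lie right of 0 and *Papd4* left of it in both genotypes.

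The mRNA of *Paip2b* leaned most to polysomes. Its mean was 4.45 times higher there than in the RNP pool in WT and 2.92 times higher in KO, with changes of 2.21 (standard error 0.28, adjusted p = 0.00162) and 1.52 (standard error 0.16, adjusted p = 0.000166). *Paip2* was 2.32 times higher in polysomes in WT (change 1.21, adjusted p = 0.000273) and 2.03 times higher in KO (1.01, adjusted p = 0.000257). *Pabpc1l* was 2.16 times higher in WT (1.10, adjusted p = 0.00531) and 2.40 times higher in KO (1.25, adjusted p = 5.7e-05). The polysome and RNP libraries of these 3 genes did not overlap in either genotype, and all 6 calls held with each library left out, KO polysome library 2 included.

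*Paip1*, the activator, leaned the other way from the inhibitors. In KO its polysome level was 0.658 times its RNP level (change -0.60, standard error 0.12, adjusted p = 0.00483), a call that held with each library left out. In WT it was 0.741 times the RNP level, again without overlap, but the change of -0.44 (standard error 0.13) did not pass (adjusted p = 0.0605), except in 3 of 14 alternatives: a filter at 5 FPKM (-0.44, adjusted p = 0.0460), quantile normalization (-0.61, adjusted p = 0.0128) and without WT polysome library 1, the highest of its group (-0.55, adjusted p = 0.0287). The mRNA of *Papd4* was lower in polysomes by a larger factor, at 0.136 times the RNP level in KO (change -2.11, standard error 0.38, adjusted p = 0.0029, held with each library left out) and 0.260 times in WT (-1.48, standard error 0.41, adjusted p = 0.0445). The WT call was lost with any 1 of the 6 libraries left out (adjusted p 0.0661 to 0.132), with the change between -1.51 and -1.44 throughout.

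*Papola*, by contrast, overlapped between pools, with differences of -0.39 in WT (95% interval -1.10 to 0.32) and -0.26 in KO (95% interval -0.78 to 0.25). *Pabpc1* in KO was 0.247 times as high in polysomes as in the RNP pool (change -1.31, standard error 0.34, adjusted p = 0.0193), and the call was lost with any 1 of the KO RNP libraries left out (adjusted p 0.0559 to 0.0922). *Cpeb4* was higher in polysomes than in the RNP pool in every WT library (1.04, standard error 0.42, adjusted p = 0.136), while its KO libraries overlapped (0.43, adjusted p = 0.502). *Cpeb3* overlapped in both genotypes, with differences of -0.99 in WT (adjusted p = 0.240) and -0.23 in KO (adjusted p = 0.496).

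The third question was whether the polysome-to-RNP ratio of FPKM differs with genotype, tested with limma as an interaction term fitted to the 12 libraries together. None of the 9 genes tested passed, where 0.237% of all genes did (26 of 10949, 0.0822% higher and 0.155% lower, and 1220 at an unadjusted p under 0.05). The smallest unadjusted p among the 9 was 0.0656, for *Pabpc1*. For *Paip1* the polysome-to-RNP ratio differed between KO and WT by -0.17 (95% interval -0.56 to 0.22), for *Paip2* by -0.20 (-0.55 to 0.15) and for *Pabpc1l* by 0.15 (-0.28 to 0.57). The intervals were wider for *Paip2b* (-0.70, 95% interval -1.47 to 0.08), *Cpeb3* (0.76, -0.48 to 1.99) and *Cpeb4* (-0.61, -1.92 to 0.70). Whether a gene passed in one genotype or pool and not in the other is therefore no sign that they differ.

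Within families the share of each gene in the summed FPKM was compared by an exact permutation test, which with 3 libraries against 3 cannot give a two-sided p below 0.1. *Pabpc1l* made up 99.7% ± 0.407 of *Pabpc1* and *Pabpc1l* together in WT polysomes, 99.4% ± 0.164 in KO polysomes, 98.9% ± 0.326 in the WT RNP pool and 94.3% ± 1.05 in the KO RNP pool. The KO RNP libraries were below all others, at 93.1% to 95%, and their difference from WT reached the smallest p possible (exact permutation p = 0.1). These shares rest on the level of *Pabpc1* as listed, with the limit given above. They leave out *Pabpc4*, which had 17.0 to 22.5 FPKM in WT and 25.7 to 41.3 FPKM in KO polysomes. *Paip2b* was a smaller part of the *Paip2* family in KO polysomes (19.5% ± 0.836) than in WT polysomes (23.8% ± 1.75), without overlap (exact permutation p = 0.1), and overlapped in the RNP pool (13.8% ± 4.95 in WT, 14.5% ± 1.64 in KO).

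The shares of *Cpeb3* and *Cpeb4*, which nearly complement each other and so are not separate results, did not overlap between genotypes in polysomes. In WT polysomes *Cpeb4* held 60.0%, 84.7% and 47.9% of the summed FPKM of *Cpeb2*, *Cpeb3* and *Cpeb4*, and in KO polysomes 10.7%, 9.07% and 21.3%. *Cpeb3* held 39.2%, 15.3% and 52.1% in WT and 89.2%, 81.3% and 78.2% in KO polysomes. Neither gene overlapped between genotypes (exact permutation p = 0.1 for each, the smallest possible), and in WT library 3 *Cpeb3* was already the larger. The sum of the family was 20.0 ± 1.77 FPKM in WT and 19.1 ± 3.76 FPKM in KO. In the RNP pool *Cpeb4* held 30.5% ± 15.3 in WT and 8.22% ± 4.47 in KO, where 1 WT library, at 12.8%, lay within the KO range (exact permutation p = 0.2). There *Cpeb3* was the larger in both genotypes, at 68.2% ± 16.6 in WT and 91.4% ± 4.29 in KO. Without KO polysome library 2 the difference between genotypes in polysomes was 48.2 percentage points for *Cpeb3* and -48.2 for *Cpeb4*.

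**Figure D4:**
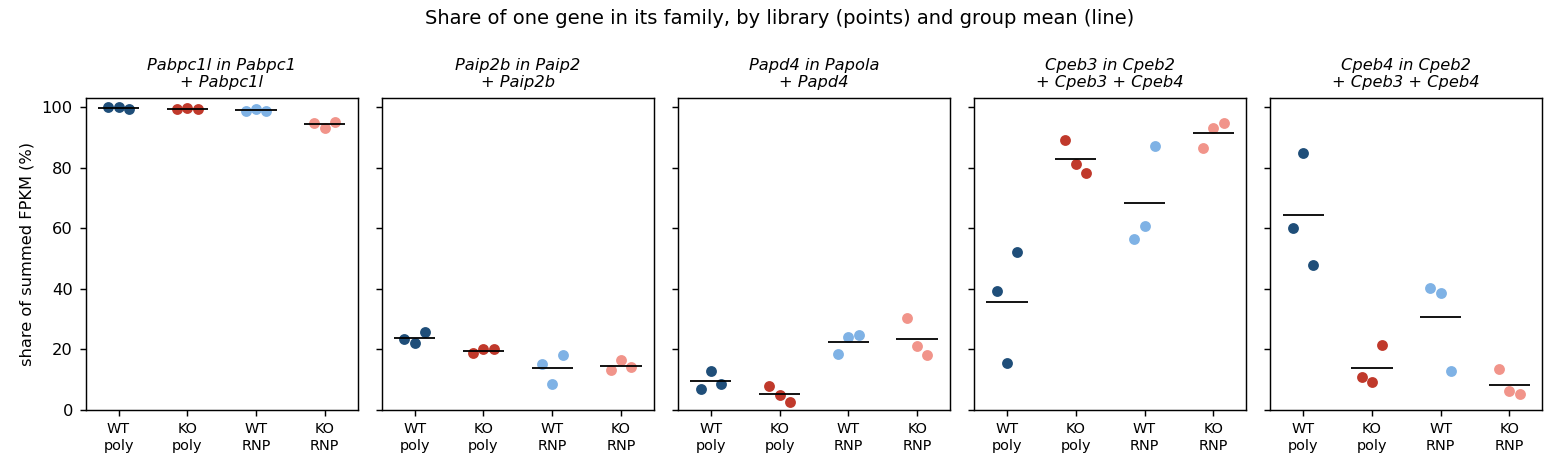
Share of one gene in the summed FPKM of its family, in percent, in the WT and KO polysome (poly) and RNP libraries. *Papola* and *Papd4* were grouped by role only, as poly(A) polymerases. Points are libraries and lines are group means; the *Cpeb3* share was above 78% in every KO polysome library and at most 52.1% in the WT ones, and the *Cpeb4* share did the reverse.

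Genes with related roles were counted over lists taken whole, where over all genes tested 5.64% rose and 4.73% fell in polysomes (median change 0.10), and 10.5% rose and 10.2% fell in the RNP pool (median change 0.05). Of 8 other poly(A)-binding proteins, 4 were tested in each pool. *Pabpn1l*, an oocyte-specific nuclear-type poly(A)-binding protein that takes part in the clearance of maternal mRNA, was 137 ± 33.0 FPKM in WT and 9.44 ± 4.42 FPKM in KO polysomes (change -3.78, standard error 0.32, adjusted p = 0.000902). It was 323 ± 33.1 FPKM in the WT and 25.6 ± 5.64 FPKM in the KO RNP pool (-3.62, adjusted p = 4.3e-06). In the RNP pool *Pabpc4*, another cytoplasmic form, rose by 0.94 (adjusted p = 0.0164) and *Zc3h14*, a zinc-finger protein that binds poly(A), fell by 0.66 (adjusted p = 0.0295). The *Pabpc4* call was lost with any 1 of the KO RNP libraries left out, and that of *Zc3h14* without KO RNP library 1 or 2 or WT RNP library 2 or 3, while those of *Pabpn1l* held throughout. The list's median change was -0.79 in polysomes and -0.50 in the RNP pool.

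Of 8 other poly(A) polymerases and terminal nucleotidyltransferases, 6 were tested in each pool. None passed in polysomes (1 at an unadjusted limma p under 0.05), and 2 fell in the RNP pool, *Papd5* by 1.54 (18.0 ± 2.83 FPKM in WT, 5.84 ± 2.90 FPKM in KO, adjusted p = 0.0113) and *Papd7* by 0.98 (118 ± 3.19 FPKM in WT, 59.9 ± 8.88 FPKM in KO, adjusted p = 0.00158). Both encode noncanonical polymerases. The list's median change was -0.30 in each pool. Of 17 genes of the nuclear cleavage and polyadenylation complex, 2 of the 15 tested rose in polysomes and 3 of the 16 tested rose in the RNP pool, and none fell in either. *Cstf2*, a subunit that binds downstream of the signal, rose in both pools, by 2.03 in polysomes (7.30 ± 4.09 FPKM in WT, 30.5 ± 3.44 FPKM in KO, adjusted p = 0.0140) and by 2.03 in the RNP pool (adjusted p = 0.00248). *Nudt21*, a subunit of cleavage factor I, rose by 1.96 in the RNP pool (1.73 ± 0.527 FPKM in WT, 9.67 ± 2.25 FPKM in KO, adjusted p = 0.00384). *Clp1* was listed at 0 in all WT polysome libraries and had 6.94 ± 2.2 FPKM in KO. *Cpsf7* rose by 1.71 in the RNP pool (adjusted p = 0.0133). *Clp1* in polysomes and *Cpsf7* in the RNP pool passed the filter only through KO libraries, and were not tested with any 1 of those left out. The polysome call of *Cstf2* was lost without KO polysome library 1 or 3, and those of *Papd5*, *Papd7*, *Nudt21* and *Cstf2* in the RNP pool held with each library left out. The list's median change was 0.34 in polysomes and 0.25 in the RNP pool.

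Of 15 proteins that contact poly(A)-binding protein, 14 were tested, of which 3 rose in polysomes and 2 in the RNP pool, and none fell. *Tob1* and *Tob2*, which bring deadenylases to poly(A)-binding protein, rose in both pools, *Tob1* by 1.78 and 1.01 (adjusted p = 0.0121 and 0.0156) and *Tob2* by 0.46 and 0.75 (adjusted p = 0.0405 and 0.00532). *Larp4b* rose by 0.91 in polysomes (adjusted p = 0.0124). Of 11 regulators of cytoplasmic polyadenylation, 9 were tested, of which 1 rose and 3 fell in polysomes and 2 fell in the RNP pool. *Cpeb1* itself, at 661 ± 45.4 FPKM in WT and 901 ± 77.4 FPKM in KO polysomes, rose by 0.45 (adjusted p = 0.0328). *Dazl*, an RNA-binding protein that promotes translation in oocytes, fell by 1.79 in polysomes and by 1.58 in the RNP pool (adjusted p = 0.0174 and 0.000141). *Zar1l* fell by 0.63 and 0.54 (adjusted p = 0.0141 and 0.000724), and *Zar1* fell by 1.15 in polysomes (adjusted p = 0.0387). Without KO polysome library 2 the polysome calls of *Tob2* (adjusted p = 0.102), *Larp4b* (0.0636), *Cpeb1* (0.143), *Dazl* (0.0573) and *Zar1l* (0.0594) were lost. Those of *Tob1* (0.0481) and *Zar1* (0.0462) remained, with a change for *Zar1* of -0.79. Without KO polysome library 3 the calls of *Tob1*, *Tob2*, *Larp4b*, *Cpeb1*, *Zar1l* and *Zar1* were lost. The call of *Tob2* was lost with any 1 of the 6 libraries left out, that of *Cpeb1* also without WT polysome library 1 or 3, and that of *Zar1* with any 1 of the WT polysome libraries left out. In the RNP pool, *Tob1* lost its call without KO RNP library 1 or 3, and *Tob2*, *Dazl* and *Zar1l* kept theirs with each library left out. Of the genes named here, *Pabpn1l*, *Pabpc4*, *Zc3h14*, *Papd7*, *Cstf2*, *Cpsf7*, *Larp4b*, *Tob2*, *Cpeb1* and *Zar1l*, and *Usp10* and *Eif4enif1* in the comparison of pools, overlap another annotated gene, and their shared reads could not be assigned. The medians were 0.16 and 0.02 for the proteins that contact poly(A)-binding protein, and 0.17 and 0.04 for the regulators. No gene of these lists passed in the interaction of genotype and pool, where 1 polymerase and 2 regulators had an unadjusted limma p under 0.05.

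Between pools, *Cpeb1* was higher in polysomes in WT (change 1.2, adjusted p = 0.000199) and in KO (1.61, adjusted p = 6.7e-06), as *Pabpc1l* was. *Larp4b* was higher in polysomes in both genotypes, by 2.37 in WT and 2.52 in KO (adjusted p = 0.00171 and 7.1e-06). *Usp10* was lower in polysomes in both, with changes of -1.3 and -1.07 (adjusted p = 0.00146 and 0.002). *Pabpn1l*, *Papd7*, *Cpsf4* and *Zar1l* were also lower in polysomes in both. *Eif4enif1* was higher in polysomes in both, by 1.11 and 1.19 (adjusted p = 0.00298 and 6.8e-05). All these calls held with each library left out, KO polysome library 2 included, except that of *Cpsf4* in WT without WT RNP library 2.

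The genes most like *Pabpc1l* over the 12 libraries, by the root mean square difference of gene-centred log2(FPKM + 1) among 6679 genes averaging 5 FPKM or more, were *Vps26a* (0.0894), *Ippk* (0.120) and *Cops8* (0.128). Picked for this likeness, all shared with *Pabpc1l* the highest mean in KO polysomes and the lowest in the WT RNP pool. Among the 10 genes, *Paip2* was nearest to *Pabpc1l* (0.207), and *Paip1* was far from it (1.11). For *Pabpc1* the nearest of 6680 genes were *Mael* (0.282), *Cdo1* (0.304) and *Lonp2* (0.304), which had their highest mean in the KO RNP pool, at 47.0, 576 and 107 FPKM. In both sets the shared order of groups follows from the choice and is no further evidence.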

How the data were processed

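The 10 genes and the lists of related genes were chosen with earlier results of these data known. Per the labels and the methods, the authors aligned paired reads of 150 bp with TopHat2 2.0.13 against mm10, and derived an FPKM for every symbol in every library by Cufflinks 2.2.1. The deposited table holds these FPKM values for 12 libraries. It also holds log2 changes, p-values and q-values of the authors' own comparisons, which were not used here. The annotation behind the symbols and the use of strand are not given in the sources used here.

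Libraries were grouped by genotype and pool from their labels. log2(FPKM + 1) of genes with at least 1 FPKM in at least 3 libraries of a comparison was tested with limma 3.58.1 (R 4.3.3) with an intensity trend and no block, with Benjamini-Hochberg adjustment over all genes tested and a threshold of 0.05. Exact permutation tests served single values. The filter left 9536 to 10949 genes. Scripts in Python 3.11.15 used pandas 2.3.3, numpy 2.4.6, scipy 1.17.1 and matplotlib 3.10.9, and the test was tested on simulated data. FPKM holds no counts. Fragments were estimated from the steps of low values with transcript length less 200 bases, and such estimates cover counting error only. Whether the replicate numbers pair libraries of different groups is not stated, and the main fits took the libraries as unpaired. Alternatives were pseudocounts of 0.1 and 5, a filter at 5 FPKM or none, median scaling of libraries or quantiles made equal, no intensity trend, the replicate number as a block, and each library left out. Genes named outside the 10 were *Lsm14b*, genes drawn from those called in each list (at most 3 higher and 3 lower, those of largest change; oocyte markers were only counted), and the 3 genes most like *Pabpc1* and *Pabpc1l*. *Gapdh*, *Ppia*, *Rpl3*, *Eef1a1*, *Vim*, *Krt18*, *Cyp19a1*, *Cyp11a1*, *March5*, *Slc23a1* and *Mir300* fall outside this rule and were chosen after values were seen. The densest sucrose was 50% in the sample labels and 55% in the methods.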

Additional observations from a re-analysis of the deposited data

How the results depend on the processing

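Of the calls for the 10 genes, those of *Paip1* and *Paip2* in the RNP pool between genotypes, of *Pabpc1l*, *Paip2* and *Paip2b* between pools in both genotypes, and of *Paip1* and *Papd4* between pools in KO held in all 14 alternatives run for each. *Paip1* in polysomes lost its call only without an intensity trend (adjusted p = 0.0711). The number of the 10 genes that passed in polysomes between genotypes was 3, and 1 without an intensity trend (*Cpeb4*), and it was 1 to 3 with each library left out. In the RNP pool it was 4, and 2 with a filter at 5 FPKM, which left *Pabpc1* and *Cpeb4* untested, and 2 to 7 with each library left out, where 7 came without WT RNP library 3. Between pools it was 3 to 4 in WT and 5 to 6 in KO with each library left out, and for the interaction it stayed 0 in every alternative.

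Over all genes, 989 passed in polysomes between genotypes, 545 with no filter and 508 without an intensity trend. Between pools in WT 1406 passed, and 728 without the trend. For the interaction 26 passed, and 6 without the trend (1131 at an unadjusted p under 0.05). With each library left out the ranges were 383 to 790 in polysomes and 1255 to 1911 in the RNP pool between genotypes, 780 to 1212 between pools in WT, 2030.0 to 2909 between pools in KO, and 0 to 46 for the interaction. The causes of these shifts were not tested, though fewer libraries were fitted where 1 was left out. Directions of the log2 changes of the 10 genes turned only for values far from the threshold, *Paip2b* in polysomes without KO polysome library 3 (-0.047, within a range of -0.047 to 0.25 with each library left out), and *Papola* in the interaction (-0.13 to 0.30) without WT polysome library 2 (-0.13), WT RNP library 1 (-0.00115) or KO RNP library 2 (-0.06). Among the differences of family shares, all of overlapping groups, that of *Paip2b* between genotypes in the RNP pool was 0.718 percentage points, -2.01 without WT RNP library 2 and -0.197 without KO RNP library 2. That of *Papd4* in the sum with *Papola*, grouped by role only, was 0.728 there, -1.28 without WT RNP library 1 and -2.79 without KO RNP library 1. The share of *Cpeb2* also turned, in the RNP pool between genotypes without WT RNP library 1 and between pools in KO without KO polysome library 2.

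With the replicate number as a block, 1 of the 10 genes (*Paip1*) passed in polysomes between genotypes, and for the interaction 11 genes passed over all genes, and 0 with the block within each genotype (1185 and 1129 at an unadjusted p under 0.05). The deviations of same-numbered libraries from their group means had correlations of -0.0242 to 0.0156. Such values cannot settle whether same-numbered libraries share a gradient, since noise between libraries could hide a shared part. Depth limits *Pabpc1*, *Papd4* and *Cpeb2*, with at most 85.2, 286 and 51.4 estimated fragments in a library.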
